A study of Homo sapiens with 6 samples.

Results

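The genes described here are BAD, BAX, BCL2 and BCL2L1, the members of the BCL2 family on the Cancer PathwayFinder PCR array, and APAF1, which acts with them in the mitochondrial pathway of apoptosis. They were chosen by name and make up 5 of the 89 genes in the deposited table. RNA came from the human line Panc-1, which derives from a pancreatic carcinoma, in 3 conditions with 2 plates each. Tet-on driver cells carried the doxycycline-responsive activator plasmid and were grown for 4 weeks with 1 μg/ml doxycycline. Tet-on CaSm cells were a subset of the driver pool that also carried full-length human CaSm behind a doxycycline-responsive promoter, and were grown for 4 weeks either with 1 μg/ml doxycycline (induced cells) or without it (non-induced cells). All 3 conditions therefore shared the activator and G418 selection, both tet-on CaSm conditions also had puromycin selection, and both lines were stable pools rather than single clones. Induced and non-induced cells differed in doxycycline as well as in CaSm, so these cannot be told apart in that comparison. Driver cells differed from both tet-on CaSm conditions in the CaSm plasmid and in puromycin selection, and from non-induced cells also in doxycycline. These differences cannot be told apart in the comparisons with driver cells. The level of CaSm (LSm1) itself was not analysed here. None of 8 ductal or epithelial markers that were looked for is on the array, so the identity of the line could not be checked.

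In the mitochondrial pathway, BAX opens pores in the outer mitochondrial membrane and releases cytochrome c. BCL2 and Bcl-XL, the product of BCL2L1, hold BAX in check, and BAD promotes death by binding these inhibitors. Released cytochrome c assembles with APAF1 into the apoptosome, which activates caspase-9. BAD, BAX and APAF1 are grouped below as pro-death and BCL2 and BCL2L1 as anti-death genes. In pancreatic cancer cells this balance is widely studied as a determinant of the response to chemotherapy. Alternative splicing of BCL2L1 gives a long anti-death and a short pro-death form, and which of them the assay reads is not given in the sources used here.

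In RefSeq annotation of the GRCh38.p14 assembly, BAD lies at chr11:64269828-64284704, BAX at chr19:48954875-48961798, BCL2 at chr18:63123346-63320090, BCL2L1 at chr20:31664452-31723963 and APAF1 at chr12:98645290-98735433. The position of each amplicon within its gene is not given in the sources used here. BAD and APAF1 both passed the test as lower against non-induced cells, and their promoters are shown for that reason, as 300 bases spanning the first start listed by RefSeq. That of BAD is chr11:64284655-64284954 on the minus strand and that of APAF1 is chr12:98645040-98645339 on the plus strand. Capitals mark every match, on either strand, to CCAAT (the CCAAT box), GGGCGG (the GC box) and TGACG (the core of the cyclic AMP response element).
BAD: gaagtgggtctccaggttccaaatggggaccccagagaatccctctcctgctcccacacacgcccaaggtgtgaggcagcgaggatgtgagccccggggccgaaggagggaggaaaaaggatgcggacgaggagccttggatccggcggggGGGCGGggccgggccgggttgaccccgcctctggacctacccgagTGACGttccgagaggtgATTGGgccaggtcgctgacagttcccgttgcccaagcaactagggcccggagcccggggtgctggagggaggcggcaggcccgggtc
APAF1: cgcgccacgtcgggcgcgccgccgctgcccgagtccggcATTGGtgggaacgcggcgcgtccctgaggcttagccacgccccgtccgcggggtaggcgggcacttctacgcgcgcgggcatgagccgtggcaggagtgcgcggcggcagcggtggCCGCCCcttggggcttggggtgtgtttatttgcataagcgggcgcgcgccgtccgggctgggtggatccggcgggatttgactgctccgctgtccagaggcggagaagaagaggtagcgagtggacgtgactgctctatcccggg
Each of these promoters held 1 CCAAT box, found in 35.7% of 27305 RefSeq promoters of 300 bases, and 1 GC box, found in 44.6%. The BAD promoter also held 1 TGACG, found in 25% of promoters, as did those of BAX, BCL2 and BCL2L1. The BAX promoter held 2 CCAAT boxes and 2 GC boxes, and those of BCL2 and BCL2L1 held neither. CACGTG, a further motif searched, is present in 7.43% of promoters and occurred 4 times in that of BAX and in none of the others. TATAAA, present in 12% of promoters, occurred 2 times in that of BCL2L1 and in none of the others. These matches describe the sequence and were not related to the expression data.

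Each plate gave a threshold cycle (Ct) per gene. A later Ct stands for less template, and 1 cycle for about 1 log2 unit. The ΔCt is the Ct after subtraction of the plate's own mean over B2M, HPRT1 and GAPDH, so that a higher ΔCt is a lower transcript level. The mean Ct of these 3 genes lay between 19.7 and 20.3 over the 6 plates. All 5 genes had a Ct under the limit of 35 on every plate, with BCL2 the latest (up to 31.4) and the other 4 genes between 23.6 and 27.3. Assays differ in efficiency and length, so levels were not compared between genes. The plate titles carry 3 different marks that have the form of calendar days, and it is not stated what was done on them. The marks were numbered here 1 to 3, and a plate is called by that number. Driver plates have marks 2 and 3, and the plates of either tet-on CaSm condition have marks 1 and 2. The sources do not say whether the plates stem from separate cultures. The study's check of RNA quality lists 1 RNA sample per condition, and its methods give 2 plates for each. The p-values thus measure only the spread between plates, which may be technical. The 5 genes all had a higher ΔCt on replicate 2 of induced cells than on replicate 1, by 0.19 to 0.97, as had 78.9% of the 76 genes that were under the limit on all plates and not used for normalization. Each sample is RNA of a whole pool, so fewer cells expressing a gene and less RNA per cell cannot be told apart.

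**Figure D1:**
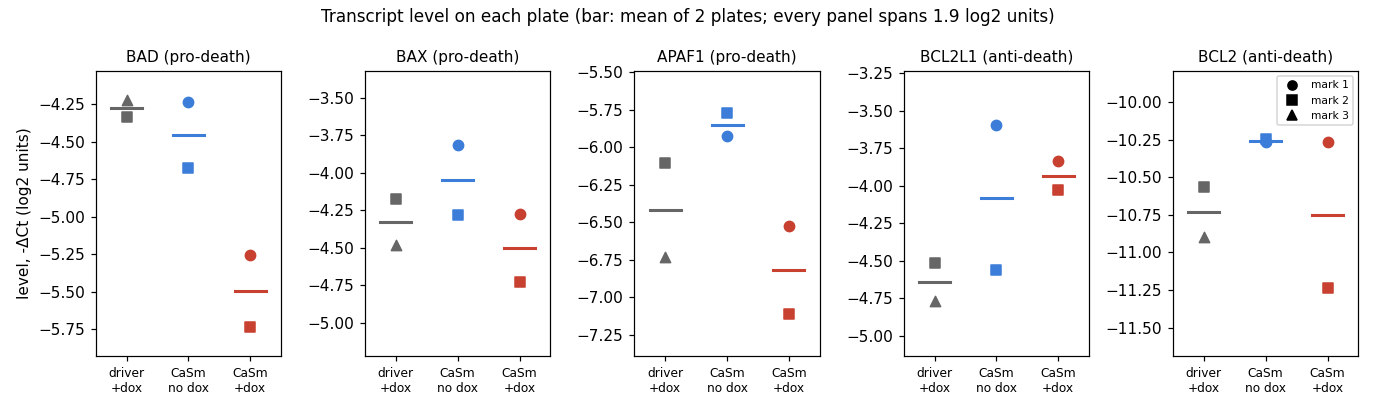
Level of each gene (−ΔCt, log2 units, vertical axis) on the 6 plates by condition. Symbols give the mark in the plate title, bars give the mean of 2 plates, and "dox" is doxycycline. Both induced plates of BAD lie below all 4 control plates, and both induced plates of BCL2L1 lie above both driver plates but within the range of the non-induced plates.

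The first question was whether pro-death and anti-death genes changed in induced cells relative to driver cells, which also received doxycycline. BAD was 2.33-fold lower in induced cells. BCL2L1 was 1.64-fold higher but did not pass the test after adjustment over all genes. BAX, BCL2 and APAF1 differed by 1.32-fold or less. In limma 1 of the 5 genes passed as lower (adjusted p-value under 0.05), beside 12.9% of the 85 genes tested that passed as lower. None passed as higher, beside 10.6% of genes tested. The plates did not overlap for 2 of the 5 genes (BAD and BCL2L1), against 54.1% of genes tested. The median log2 fold change of the 5 genes was −0.17, beside −0.08 over all genes.

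BAD, which binds and neutralizes Bcl-XL and BCL2, had a ΔCt of 5.26 and 5.74 on the induced plates. In driver cells it was 4.34 and 4.22. The lowest induced value was thus above the highest driver value. The log2 fold change was −1.22 (standard error 0.27, 95% interval −1.81 to −0.63), with an adjusted p-value of 0.0073 from limma. The call was kept with each plate left out in turn, but not without moderation of the variance (adjusted p = 0.107). On the plates marked 2, where each condition has 1 plate, the log2 difference was −1.40.

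BCL2L1, the gene of the survival factor Bcl-XL, had a ΔCt of 3.84 and 4.03 in induced cells and 4.52 and 4.77 in driver cells. Every induced value was below every driver value. The log2 fold change was 0.71 (standard error 0.32, 95% interval 0.02 to 1.41), with an adjusted p-value of 0.119 from limma. With GAPDH alone as the reference the call was made (log2 fold change 1.105, adjusted p = 0.0063), whereas with B2M alone the value was 0.245 (adjusted p = 0.479) and with a block for the mark 0.30 (adjusted p = 0.721).

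BAX, the pore-forming effector, had a ΔCt of 4.28 and 4.73 in induced cells and 4.18 and 4.48 in driver cells, and these values overlapped. Its log2 fold change was −0.17 (95% interval −0.78 to 0.43, adjusted p = 0.692 from limma). BCL2, the founding inhibitor of the family, had a ΔCt of 10.3 and 11.2 in induced cells, on either side of the driver values of 10.6 and 10.9. Its log2 fold change was −0.02 (95% interval −0.72 to 0.68, adjusted p = 0.955 from limma). Without induced replicate 2 it was 0.47, and without induced replicate 1 it was −0.50. APAF1, the scaffold of the apoptosome, had a ΔCt of 6.53 and 7.11 in induced cells and 6.11 and 6.73 in driver cells, which overlapped. Its log2 fold change was −0.40 (95% interval −1.05 to 0.25, adjusted p = 0.351 from limma). These intervals do not show that the 3 genes were equal in the 2 conditions. With B2M alone as the reference, BAX (−0.64, adjusted p = 0.043) and APAF1 (−0.865, adjusted p = 0.0219) passed the test in limma as lower.

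The second question was whether the same genes changed relative to tet-on CaSm cells without doxycycline, which carry the same construct. BAD and APAF1 were lower in induced cells, by 2.06-fold and 1.95-fold. BAX was 1.37-fold lower and BCL2 1.41-fold lower, without passing the test, and BCL2L1 was 1.11-fold higher. In limma 2 of the 5 genes passed as lower, beside 18.1% of the 83 genes tested, and none as higher, beside 7.23%. The plates did not overlap for 2 of the 5 genes, against 61.4% of genes tested. The median log2 fold change was −0.50 over the 5 genes and −0.21 over all genes.

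BAD had a ΔCt of 4.24 and 4.67 in non-induced cells, and both induced values (5.26 and 5.74) were higher. The log2 fold change was −1.04 (standard error 0.27, 95% interval −1.63 to −0.45, adjusted p = 0.0238 from limma). Over the 4 control plates together, BAD was the 1 gene of the 5 for which the induced plates lay outside the whole control range, as they did for 36.5% of the 85 genes tested. Within the plates marked 1 the log2 difference of BAD was −1.02 and within those marked 2 it was −1.06. The call against non-induced cells depended on the plates, although the sign did not. The adjusted p-value from limma was 0.164 without non-induced replicate 1 (log2 fold change −0.82), 0.0507 without non-induced replicate 2 (−1.26) and 0.109 without induced replicate 2 (−0.80).

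APAF1 had a ΔCt of 5.93 and 5.77 in non-induced cells, against 6.53 and 7.11 in induced cells, and the conditions did not overlap. The log2 fold change was −0.97 (standard error 0.29, 95% interval −1.61 to −0.32, adjusted p = 0.0377 from limma). It was −0.60 within the plates marked 1 and −1.33 within those marked 2. The call was lost without non-induced replicate 1 (log2 fold change −1.04, adjusted p = 0.162), without non-induced replicate 2 (−0.89, adjusted p = 0.184) and without induced replicate 2 (−0.68, adjusted p = 0.181). With GAPDH alone as the reference, neither APAF1 (−0.63, adjusted p = 0.186 from limma) nor BAD (−0.705, adjusted p = 0.135) passed.

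BAX had a ΔCt of 3.82 and 4.28 in non-induced cells, just reaching the lower induced plate. Its log2 fold change was −0.45 (95% interval −1.06 to 0.15, adjusted p = 0.266 from limma). BCL2 had a ΔCt of 10.27 and 10.24 in non-induced cells, equal to induced replicate 1 (10.27) and nearly 1 cycle below induced replicate 2 (11.24). Its log2 fold change of −0.50 (95% interval −1.19 to 0.20, adjusted p = 0.284 from limma) rested on that last plate. Without induced replicate 2 it was −0.01, and without induced replicate 1 it was −0.98 (adjusted p = 0.03). BCL2L1 was spread widely in non-induced cells, with a ΔCt of 3.60 and 4.56 that enclosed both induced plates. Its log2 fold change was 0.15 (95% interval −0.55 to 0.84, adjusted p = 0.79 from limma), −0.24 within the plates marked 1 and 0.54 within those marked 2.

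**Figure D2:**
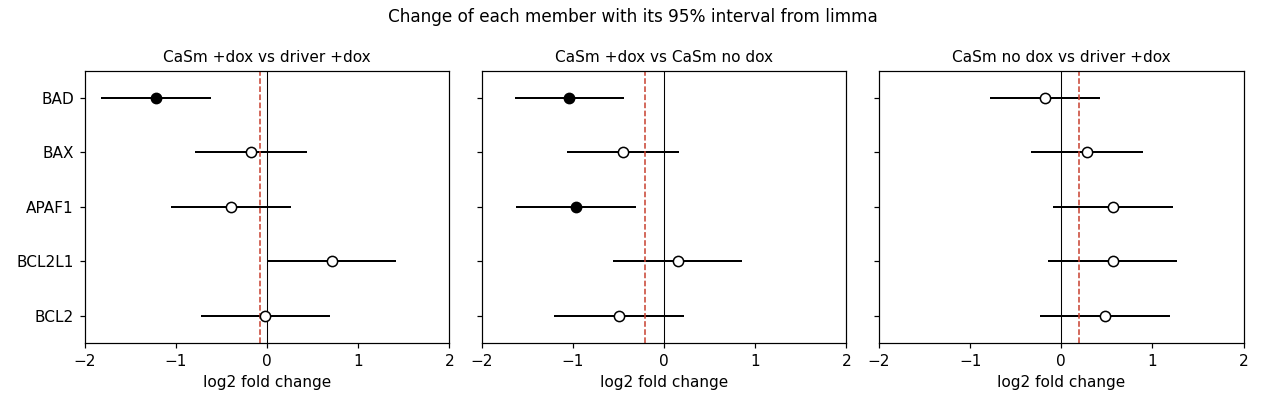
Log2 fold change (horizontal axis) of each gene with its 95% interval in the 3 comparisons. Filled points passed at 0.05 after adjustment over all genes, and the dashed line is the median of all genes. BAD is filled against both controls, APAF1 only against non-induced cells and no gene between the controls.

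The dependence on the control was tested directly, since the change against driver cells minus the change against non-induced cells equals the difference between non-induced and driver cells. In limma none of the 5 genes passed in that comparison, beside 7.06% of 85 genes tested, and none had a p-value under 0.05 before adjustment. The plates did not overlap for 2 of the 5 genes, APAF1 and BCL2, against 50.6% of genes tested. Non-induced cells had more APAF1 (log2 fold change 0.57, 95% interval −0.08 to 1.22, adjusted p = 0.269 from limma) and more BCL2L1 (0.56, 95% interval −0.13 to 1.26, adjusted p = 0.32) than driver cells on average. The values were 0.48 for BCL2, 0.28 for BAX and −0.18 for BAD, with adjusted p-values from 0.413 to 0.754. The median over all genes was 0.20. The change of APAF1 against non-induced cells and that of BCL2L1 against driver cells thus differed in size from the change against the other control, but the difference did not pass the test for either gene. The 2 comparisons share the induced plates.

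In the order of levels, the mean of BAD was highest in driver and lowest in induced cells, and the plates of driver and non-induced cells overlapped. APAF1 was highest in non-induced cells, apart from both other conditions, which overlapped. BAX had the same order as APAF1, with overlap between each pair of neighbours. BCL2L1 was highest in induced, intermediate in non-induced and lowest in driver cells, and the non-induced plates overlapped both others. BCL2 was highest in non-induced cells, and its induced plates enclosed both driver plates.

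**Figure D3:**
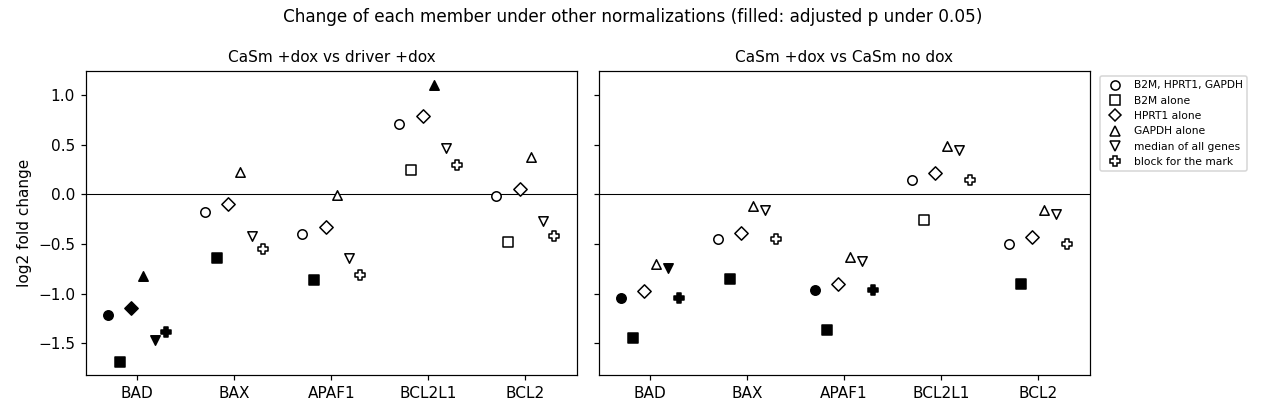
Log2 fold change (vertical axis) of each gene with 6 processing choices, for induced cells against driver cells on the left and against non-induced cells on the right. BAD is below 0 throughout and filled (adjusted p-value under 0.05) in every setting on the left, whereas BCL2L1 runs from 0.245 to 1.105 on the left.

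The normalizing genes bear on all of these values. In induced cells B2M had a ΔCt of 0.10 ± 0.07 (SD, n = 2 plates) against 0.56 ± 0.09 in driver cells, and GAPDH −1.78 ± 0.09 against −2.17 ± 0.12, so that B2M was on average higher in level and GAPDH lower in level relative to the mean of the 3 genes. HPRT1 had a ΔCt of 1.68 ± 0.16 and 1.61 ± 0.03. With B2M, HPRT1 or GAPDH alone, the median of all genes against driver cells was −0.545, −0.005 and 0.315. The median log2 fold change of all genes tested was also subtracted from the main values. The log2 fold changes against driver cells were then −1.14 for BAD, 0.79 for BCL2L1, −0.32 for APAF1, −0.10 for BAX and 0.06 for BCL2. Against non-induced cells they were −0.83 for BAD, −0.755 for APAF1, 0.36 for BCL2L1, −0.285 for BCL2 and −0.24 for BAX.

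Pro-death and anti-death transcripts were then compared within a plate, where the normalizing genes cancel. The mean Ct of BCL2 and BCL2L1 minus the mean Ct of BAD, BAX and APAF1 was 2.67 and 2.69 cycles in driver cells, 2.27 and 2.49 in non-induced cells and 1.70 and 1.78 in induced cells. A lower value means less pro-death relative to anti-death template. The conditions did not overlap in any pair, and induced cells were lowest. Among single genes, the plates did not overlap for 54.1% of genes tested against driver cells. The share was 61.4% against non-induced cells and 50.6% between the controls. The mean Ct difference fell by 0.94 cycles from driver to induced cells, a 1.92-fold shift. From non-induced to induced cells it fell by 0.65 cycles, a 1.56-fold shift. Non-induced cells were 0.30 cycles below driver cells. When single plates were left out, the shift stayed between −0.98 and −0.905 cycles against driver cells and between −0.76 and −0.535 against non-induced cells. The difference between the controls ranged from −0.41 to −0.19 cycles, the latter without non-induced replicate 1. Without APAF1 the shift was −1.04 cycles against driver cells, −0.57 against non-induced cells and −0.47 between the controls. No test was made, because the genes were chosen with earlier results known, and the SD within a condition was 0.02, 0.16 and 0.05 cycles in driver, non-induced and induced cells.

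The shift was uneven over pairs of genes, which share members and so are not separate results. How often pairs of other genes on the array do not overlap was not computed, for the pairs here or those below. BAD against BCL2L1 moved the most, with a Ct of BCL2L1 minus that of BAD of 0.18 and 0.55 cycles in driver cells, −0.64 and −0.11 in non-induced cells and −1.42 and −1.71 in induced cells. This is a 3.81-fold lower ratio of BAD to BCL2L1 in induced than in driver cells and a 2.28-fold lower ratio than in non-induced cells. Non-induced cells were themselves 1.67-fold below driver cells, so this ratio in non-induced cells lay between the other conditions. BAX against BCL2L1 was 0.34 and 0.29 cycles in driver cells, −0.22 and 0.28 in non-induced cells and −0.44 and −0.70 in induced cells. Against driver cells it was 1.85-fold lower, without overlap. BAD against BCL2 was 6.23 and 6.68 cycles in driver cells, 6.03 and 5.57 in non-induced cells and 5.01 and 5.50 in induced cells. It was 2.30-fold lower in induced cells than in the driver and 1.46-fold lower than in non-induced cells. These did not overlap, but the nearest induced and non-induced plates (5.50 and 5.57) were close. BAX against BCL2, often used as a single index of the pathway, was 6.39 and 6.42 cycles in driver cells, 6.45 and 5.96 in non-induced cells and 5.99 and 6.51 in induced cells. The induced plates enclosed the driver plates, and the difference of means (induced minus driver) was −0.155 cycles.

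Among the pro-death genes, BAD was also lower relative to BAX. The Ct of BAX minus that of BAD was −0.16 and 0.26 cycles in driver cells, −0.42 and −0.39 in non-induced cells and −0.98 and −1.01 in induced cells. The 3 conditions did not overlap, and BAD was 2.06-fold lower relative to BAX in induced cells than in the driver. APAF1 relative to BCL2L1 was 2.16-fold lower in induced cells than in the driver and 2.17-fold lower than in non-induced cells, with a difference between the controls of 0.005 cycles. The non-induced plates of that pair were far apart, however, at −2.33 and −1.21 cycles.

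**Figure D4:**
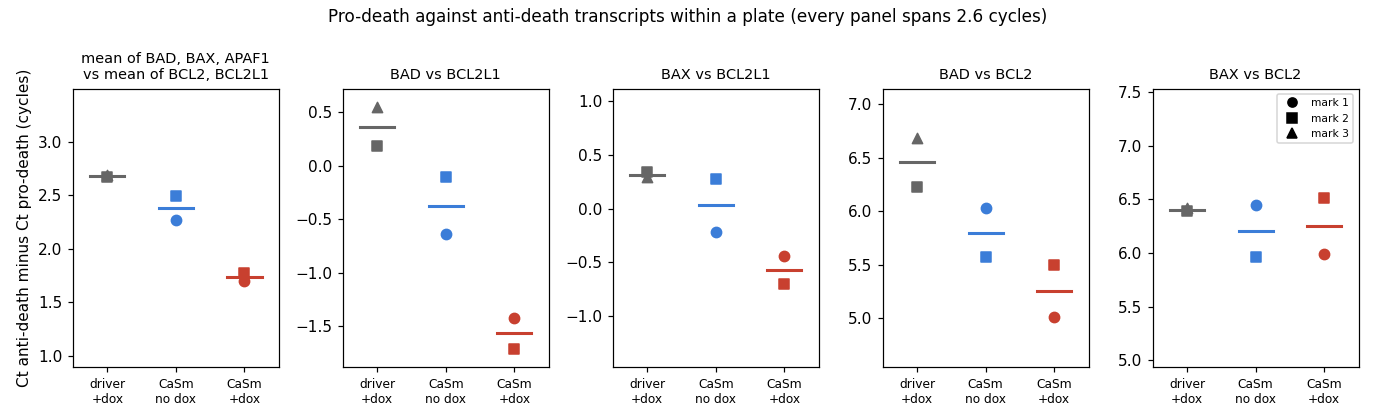
Ct of anti-death minus Ct of pro-death genes on the same plate (cycles, vertical axis), by condition, for the mean of all 5 genes and for 4 pairs. Lower points mean less pro-death relative to anti-death template, and bars are means of 2 plates. The induced plates lie lowest without overlap in every panel except BAX against BCL2. The panels share genes, so they are not separate results.

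Of 14 other apoptosis genes on the array, 4 passed the test against driver cells, 1 as higher and 3 as lower, beside 10.6% and 12.9% of all genes tested. The median log2 fold change over the 14 genes was 0.004, beside −0.08 over all genes. In the receptor arm, the death receptor gene TNFRSF10B was higher (log2 fold change 1.48), and the death receptor gene FAS (−1.35) and the cytokine TNF (−0.97) were lower, with adjusted p-values from 0.0025 to 0.0388 in limma. CASP8, the initiator caspase of that arm, had a log2 fold change of 0.61 (adjusted p = 0.119) and its inhibitor CFLAR 0.48 (adjusted p = 0.223). Among regulators of the BCL2 family, E2F1, a transcription factor of the cell cycle and apoptosis, was lower (−0.94, adjusted p = 0.0389). Against non-induced cells 3 of 13 genes tested passed, 1 as higher and 2 as lower, beside 7.23% and 18.1% of all genes tested. TNF was higher (0.94, adjusted p = 0.0415 from limma), E2F1 was lower (−1.54, adjusted p = 0.0046) and PIK3R1, a regulatory subunit of the PI3 kinase upstream of BAD phosphorylation, was lower (−0.92, adjusted p = 0.0367). Between the controls FAS (−1.09) and TNF (−1.91) were lower in non-induced cells, with 2 of 14 called, beside 7.06% of all genes tested. E2F1 was therefore the gene of this list called in the same direction as BAD against both controls, where both comparisons share the induced plates.

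The genes whose −ΔCt followed each member most closely over the 6 plates were found among 75 others that were under the limit on every plate. For BAD these were ITGA2, ETS2 and ACTB, with Pearson's r of 0.97, 0.96 and 0.92. For APAF1 they were BRCA1, PIK3R1 and ITGA1 (0.995, 0.99 and 0.99), and for BAX they were AKT1, MMP2 and JUN (0.97, 0.94 and 0.94). For BCL2 they were MMP2, BRCA1 and MET (0.92, 0.89 and 0.88), and for BCL2L1 PLAU, PNN and TNFRSF25 (0.89, 0.87 and 0.85). Within the group, BCL2 followed APAF1 (0.85), BAX followed APAF1 (0.81) and BAX followed BCL2 (0.81). BAD had an r of 0.65 with BAX, 0.62 with APAF1, 0.40 with BCL2 and −0.35 with BCL2L1. BCL2L1 had an r of 0.40 with BAX, 0.26 with BCL2 and −0.009 with APAF1. These are descriptions over 6 plates that share the normalizing genes and plate-wide offsets.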

How the data were processed

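The authors extracted RNA with an RNeasy Plus kit, made cDNA with an RT2 First Strand kit and read SYBR Green arrays with a Roche Lightcycler. The Ct values the authors deposited, for 89 genes and 6 plates, are PCR cycles without normalization. The sources used here do not give how the Ct threshold was chosen. A second deposited table holds the authors' signed fold changes from the ΔΔCt method and was not used.

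Labels gave the condition of each plate. Ct values above 35 were set to 35, a limit chosen here, and the plate mean of the normalizing genes named in the study's methods (B2M, HPRT1 and GAPDH) was subtracted. −ΔCt of all genes on 6 plates was modelled in limma 3.58.1 (R 4.3.3) with 3 condition means and empirical Bayes moderation. Each adjusted p-value is from limma with Benjamini-Hochberg adjustment over all genes tested, with a threshold of 0.05. In the main setting these were 85 genes, or 83 for induced against non-induced cells. The number differed in some alternative settings, such as 67 with a filter on a mean Ct under 30. Values without moderation are from ordinary t tests in the same model. The normalizing genes and genes at the limit on every plate compared were left out. With 2 plates against 2 an exact permutation test (two-sided) reaches 0.333 at the lowest, so it was not used. The script was tested on simulated data. Figures were drawn with matplotlib 3.10.9 in Python 3.11.15.

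The genes named are the 5 members, the members of a list of 14 apoptosis genes with an adjusted p-value under 0.05 (CASP8 and CFLAR were named after their values were seen), and for each member the 3 genes with the highest correlation. The members and lists were chosen with earlier results of these data known. The comparisons were tried with other normalizing genes, limits, models and plates. Promoter sequences are from RefSeq (GRCh38.p14), where all 5 symbols matched.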

Additional observations from a re-analysis of the deposited data

How the results depend on the processing

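BAD stayed lower in induced cells under every alternative against both controls, from −1.685 to −0.825 against driver cells and from −1.445 to −0.705 against non-induced cells on the log2 scale. All p-values here are adjusted and from limma. With B2M alone, values against driver cells passed the threshold for APAF1 (−0.865) and BAX (−0.64), and those against non-induced cells for BAX (−0.855) and BCL2 (−0.90), while BCL2L1 turned to −0.255. With HPRT1 alone, BCL2 turned to 0.055 against driver cells, and APAF1 (−0.90) and BAD (−0.975) lost their calls against non-induced cells. With GAPDH alone, BAX (0.22) and BCL2 (0.375) turned higher against driver cells, BCL2L1 was called (1.105), and APAF1 (−0.63) and BAD (−0.705) lost their calls against non-induced cells. With the median Ct of all genes, APAF1 was not called against non-induced cells (−0.67), and BAX (−0.265) and BCL2 (−0.065) turned lower between the controls. Calls against non-induced cells were also lost with a Ct limit of 40 (APAF1 −0.97, BAD −1.04) and without moderation (APAF1 −0.97, BAD −1.04), and that of BAD against driver cells was lost without moderation (−1.22, adjusted p = 0.107, without the moderation of limma). Over these alternatives, the p-value of BAD ranged from 0.00075 to 0.107 against driver cells and from 0.0012 to 0.165 against non-induced cells, where that of APAF1 ranged from 0.0018 to 0.238. Where calls were lost or directions turned, the cause was not tested. BCL2 had no value with the filter on a mean Ct under 30.

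The mark is the only label that could pair single plates of different conditions. With it as a replicate block no call of the 5 genes changed, but driver cells then rest on 1 plate, so this is weak evidence. BAX between the controls turned to −0.10, and the calls over all genes went from 20 to 16, 21 to 24 and 6 to 2 in the 3 comparisons. Deviations of induced and non-induced plates with the same mark had a correlation of −0.17 over 76 genes. A crossed pairing, chosen after seeing the data, gave 19 calls against non-induced cells, and 21 without a block on the same plates. On the plates marked 2 alone, some differences moved from the main value by more than the standard error of the main fit. Against driver cells these were −0.55 for BAX, −0.67 for BCL2 and −1.0 for APAF1. Against non-induced cells they were −0.99 for BCL2, 0.54 for BCL2L1 and −1.33 for APAF1. Between the controls they were −0.11 for BAX and −0.047 for BCL2L1. On the plates marked 1, an alternative also chosen after seeing the data, they were 0 for BCL2, −0.24 for BCL2L1 and −0.60 for APAF1. Without APAF1 the pro-death against anti-death shift was −1.04 against driver cells and −0.47 between the controls.

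Each plate of a comparison was left out in turn, while the plates of the third condition were kept. Values against driver cells then ranged from −1.46 to −0.98 for BAD, −0.40 to 0.052 for BAX and −0.50 to 0.47 for BCL2. They ranged from 0.585 to 0.84 for BCL2L1 and from −0.71 to −0.087 for APAF1. Against non-induced cells they ranged from −1.28 to −0.80 for BAD, −0.685 to −0.22 for BAX, −0.98 to −0.012 for BCL2, −0.335 to 0.63 for BCL2L1 and −1.26 to −0.68 for APAF1. Between the controls they ranged from −0.395 to 0.042 for BAD, 0.045 to 0.51 for BAX, 0.31 to 0.645 for BCL2, 0.08 to 1.05 for BCL2L1 and 0.26 to 0.88 for APAF1. Over all genes, calls against driver cells were 9 higher and 11 lower, but 7 and 37 with B2M alone, 7 and 4 with HPRT1 alone, 24 and 5 with GAPDH alone and 7 and 13 with the median. Against non-induced cells 6 were higher and 15 lower, but 2 and 40 with B2M, 2 and 4 with HPRT1, 11 and 4 with GAPDH and 14 and 9 with the median. Between the controls the calls were 3 and 3, but 4 and 5 with B2M, 1 and 1 with HPRT1, 4 and 2 with GAPDH and 1 and 6 with the median. With a Ct limit of 40 the 3 comparisons gave 10, 8 and 1 calls, and without moderation 5, 4 and 1.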
